A study of Mus musculus with 24 samples.

Results

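The 36 protein-coding histone H2A and H2B genes of the mouse mm10 annotation (GENCODE M21) whose symbols begin with Hist1 to Hist4 followed by h2a or h2b were examined for protein-protected sites (PPSs) during erythroid differentiation. They comprise 18 H2A and 18 H2B genes, out of 21938 protein-coding genes, of which 9550 held an exonic PPS. The genes were picked by their symbols, as a group proposed with earlier results of these data known. Most lie in the Hist1 cluster on chromosome 13, with smaller groups on chromosome 3 (Hist2) and chromosome 11 (Hist3).

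PPSs came from protein interaction profile sequencing (PIP-seq) of MEL cells, a murine erythroleukemia line that matures toward red cells when 2% DMSO is added to its medium. Cells were taken before DMSO (day 0) and after 2 and 4 days, and all of them were crosslinked with formaldehyde. At each day, 8 libraries combined an RNase that cuts single-stranded RNA (ssRNase, RNaseONE) or double-stranded RNA (dsRNase, RNase V1), proteins left on the RNA during digestion (footprinting) or removed before it (structure only), and 2 replicates, giving 24 libraries in 12 groups of 2. A PPS is a stretch with more reads in footprinting than in structure only libraries, so it marks RNA that proteins shielded from the RNase.

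H2A and H2B pair into the dimers that complete the nucleosome core. Their replication-dependent mRNAs are made in S phase, in general carry no introns and no poly(A) tail, and end in a short stem-loop. That stem-loop is bound by SLBP, the protein that guides 3′ end processing, translation and decay of these mRNAs. Erythroid precursors leave the cell cycle late in maturation. The PPS lists hold no RNA levels, so fewer cells with histone mRNA, less histone mRNA per cell and less protection per mRNA cannot be told apart here.

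The stem-loop is shown first because it is the defining 3′ element of these mRNAs. A search of the 300 nt after each stop codon for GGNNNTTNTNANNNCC, on the sense strand and with no other motif searched, found it in 34 of 36 genes, 21 to 58 nt after the stop codon (median 29). The same letters stood within 300 nt of the stop codon in all 31 H1, H3 and H4 genes and in 0.517% of the other 21871 protein-coding genes. On the opposite strand the share for those other genes was 0.430%. No match was found for Hist1h2an and Hist2h2be, which says only that these letters are not in that window. Among the H2A and H2B genes 3 forms occurred, written below as DNA from the GRCm38 assembly with the 4-base loop in capitals. They differed only in the last base of the loop.
Hist2h2ab (chr3:96220333-96220348, plus strand) and 4 H2B genes: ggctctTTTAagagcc
Hist1h2ag (chr13:22042483-22042498, minus strand) and 27 other genes, 15 of the 28 being H2A: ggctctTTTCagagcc
Hist2h2ac (chr3:96220418-96220433, minus strand) alone: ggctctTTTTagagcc

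The strongest day 0 PPSs that lay wholly inside coding sequence are shown next, 1 per class, with the nucleotides that were also inside a PPS at day 4 in capitals. In Hist3h2a the PPS spanned coding nt 135 to 342 (chr11:58954872-58955079, plus strand, 208 nt), was called with dsRNase in both replicates and had a score of 24.2, the authors' enrichment value. In Hist2h2bb it spanned coding nt 45 to 247 (chr3:96269796-96269998, plus strand, 203 nt), again with dsRNase calls of both replicates and a score of 28.5. At day 4, 73 nt of the Hist3h2a stretch and 172 nt of the Hist2h2bb stretch were still in a PPS.
Hist3h2a: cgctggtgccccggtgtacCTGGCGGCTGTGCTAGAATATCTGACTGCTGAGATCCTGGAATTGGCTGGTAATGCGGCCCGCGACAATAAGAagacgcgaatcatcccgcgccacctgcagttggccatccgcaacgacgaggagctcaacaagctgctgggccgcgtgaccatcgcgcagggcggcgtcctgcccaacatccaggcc
Hist2h2bb: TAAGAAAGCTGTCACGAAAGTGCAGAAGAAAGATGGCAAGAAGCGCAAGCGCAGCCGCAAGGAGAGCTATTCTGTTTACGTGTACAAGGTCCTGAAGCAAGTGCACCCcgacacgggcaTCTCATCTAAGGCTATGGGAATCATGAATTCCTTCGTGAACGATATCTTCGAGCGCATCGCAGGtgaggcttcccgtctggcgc
Both genes have few close copies. Of their exonic 25-mers, 4.48% in Hist3h2a and 12.9% in Hist2h2bb were found elsewhere in the genome, against a median of 67.9% over the 36 genes.

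Several facts of the lists bear on what follows. PPSs of 20 to 40 nt, a length near that of a ribosome footprint, were left out. The day 0, day 2 and day 4 lists then held 114907, 119487 and 122038 PPSs. A name field tells which nuclease and replicate called each PPS, which gives 4 call sets per day with 14832 to 73952 PPSs each. Read depth is unknown from these lists. In ssRNase replicate 2, 66.9% of PPSs lay on the plus strand at day 0 and 43.1% at day 4. In all other call sets the share was 50.3% to 52.0%. Of the H2A and H2B genes, 21 lie on the plus and 15 on the minus strand, so ssRNase replicate 2 is less comparable across days. Calls that overlapped were merged, and replicate values use the merged coordinates, so equal values in both replicates can come from 1 shared interval. The study's methods call the replicates biological and divide each sample among its libraries, so the ssRNase and dsRNase libraries of a replicate share their cells. With 2 replicates per day no two-sided exact permutation test could go below p = 0.333, so no test was run. Erythroid identity was seen in all 12 erythroid markers, which held PPSs, and 10 of them were higher at day 4 than at day 0 in every replicate. The same was true of 30.8% of the 9550 genes with an exonic PPS. Among 10 markers of other blood lineages, 8 held no PPS at any day, the exceptions being Pf4 and Itga2b of the megakaryocyte lineage.

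Coverage, the percentage of a gene's exonic nucleotides lying in a same-strand PPS, was high on H2A genes at day 0 and low at day 4. In some genes the annotated exons extend well beyond the coding sequence, as in Hist1h2be (4446 nt), Hist2h2be (2620 nt) and Hist1h2ac (2482 nt). The same protected stretch gives a lower percentage there, so levels and changes in points are not strictly comparable between genes or classes. The annotation also gives introns to Hist1h2bc, Hist1h2be, Hist1h2bp, Hist1h2bq and Hist1h2br. Hist1h2be, for example, spans chr13:23583670-23621124. Coverage of these genes thus includes exons that are not part of the intronless stem-loop mRNA. Coverage of coding positions alone is given further below. Over the 18 H2A genes the median fell from 54.0% at day 0 through 44.0% at day 2 to 5.92% at day 4. By replicate it was 17.8% and 52.5% at day 0, 37.7% and 22.3% at day 2, and 5.92% and 0% at day 4. Over the 9550 genes with an exonic PPS the pooled median stayed between 5.59% and 6.02% on the 3 days. Over the 262 of them with at most 1000 exonic nt, the shorter H2A and H2B genes included, it was 16.3%, 15.6% and 12.3%. Between day 0 and day 4 the median change over H2A genes was -38.0 percentage points, with a range of -48.5 to -9.39 when each day 4 replicate was set against each day 0 replicate (4 pairs). The median change over all genes was 0 points, and over those with at most 1000 exonic nt it was -3.03 points. The smallest of these H2A falls came from day 0 replicate 1, and without day 0 replicate 2 the median change was -9.39 points.

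H2B genes had their highest median at day 2. It went from 20.9% at day 0 up to 35.8% at day 2 and then down to 4.46% at day 4. The replicates gave 6.16% and 20.9% at day 0, 32.4% and 34.1% at day 2, and 0% and 2.93% at day 4. With both nucleases together, day 2 exceeded day 0 in both replicates by this median, and day 4 lay below both other days. The median change from day 0 to day 2 was 6.85 points (3.12 to 13.7 over replicate pairs), against -5.77 points for H2A (-17.1 to 0). From day 0 to day 4 it was -10.6 points (-14.2 to -1.26). Without day 0 replicate 2 the H2B changes were 13.7 points at day 2 and -1.26 points at day 4, and the H2A change at day 2 turned to 2.83 points. The difference between the classes at day 2 was not tested. With ssRNase calls alone the median change was positive in both, at 23.4 points for H2A and 25.4 for H2B. These 2 values came mainly from ssRNase replicate 1, whose day 2 medians were 29.4% for H2A and 28.3% for H2B. In ssRNase replicate 2 they were 5.48% and 0%.

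Gene by gene, a fall was counted where both replicates of the later day lay below both of the earlier day. From day 0 to day 4, 13 of 18 H2A genes and 10 of 18 H2B genes fell by this rule, where 25.4% of all genes with an exonic PPS did. With both nucleases together, no H2A or H2B gene was higher at day 4 in this way, against 30.8% of all genes. Among genes of at most 1000 exonic nt, which are more like histone genes in length, 82 of 262 fell and 59 were higher. That set was not freed of the H2A and H2B genes, so the shorter ones are counted in it. From day 2 to day 4, 14 H2A and 16 H2B genes fell, against 19.3% of all genes. From day 0 to day 2, 6 H2A and 2 H2B genes fell (30.4% of all genes), and 3 H2A and 10 H2B genes were higher (22.3% of all genes). With both nucleases together, the count for H2B at day 2 was therefore above the background upward and below it downward. The H2A counts at day 2 were near the background. With ssRNase alone, 2 H2B and 7 H2A genes were higher at day 2 (23.1% of all genes), and 0 of either class fell (16.6%). With dsRNase alone, 3 H2B genes and 1 H2A gene were higher (7.66% of all genes), and 2 and 6 fell (28.1%).

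**Figure D1:**
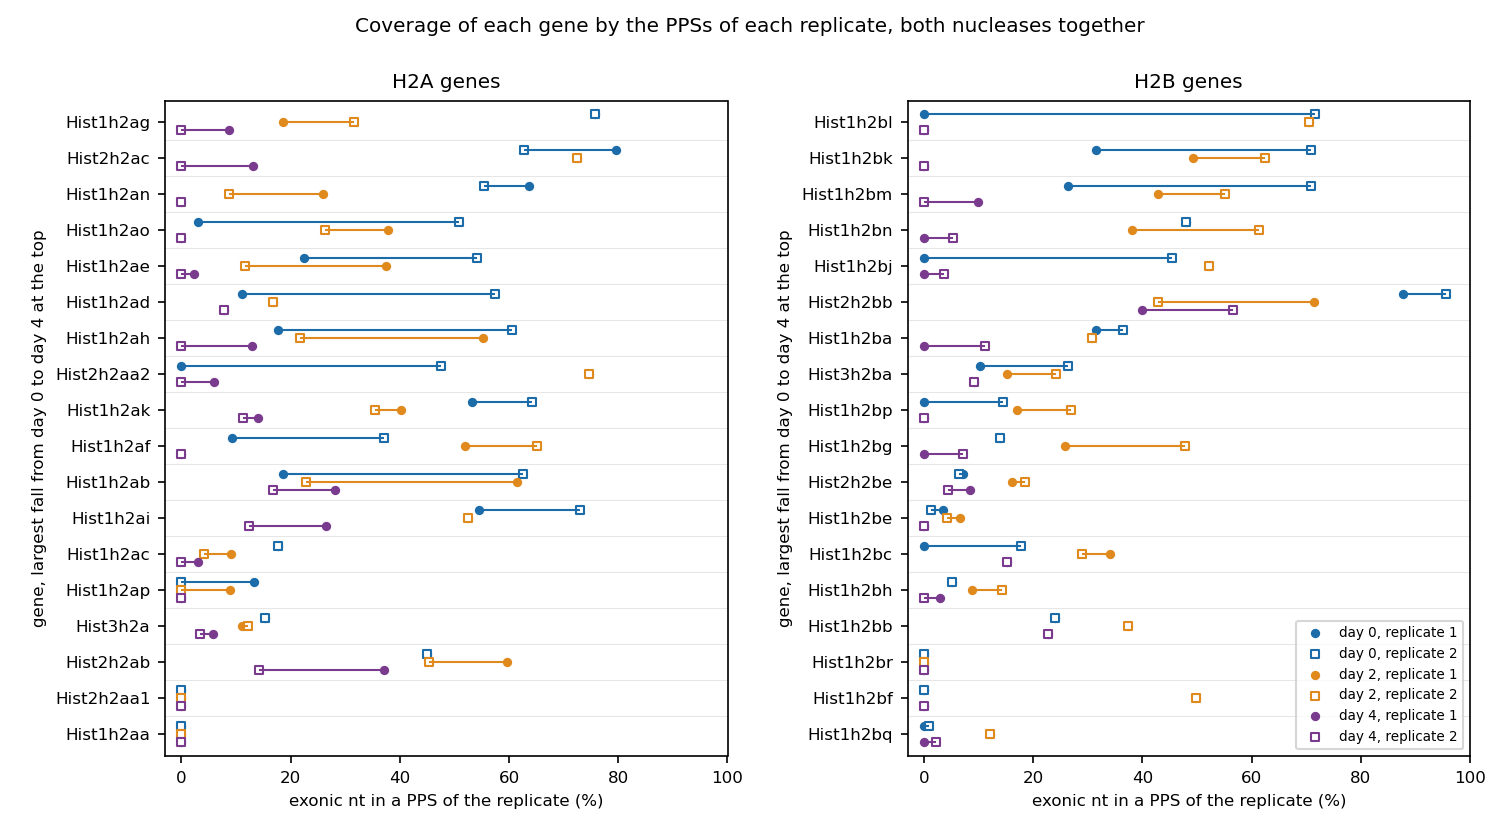
Coverage of each H2A (left) and H2B (right) gene in percent of exonic nt, with circles for replicate 1, squares for replicate 2 and a line joining them (a square alone hides a circle at the same value), in blue for day 0, orange for day 2 and purple for day 4. Genes are ordered by their pooled change from day 0 to day 4, and the purple points lie left of the blue ones in 13 H2A and 10 H2B genes.

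The 6 H2A genes with the largest change from day 0 to day 4 were Hist1h2ag, Hist2h2ac, Hist1h2an, Hist1h2ao, Hist1h2ae and Hist1h2ad, all of which encode replication-dependent core H2A. Hist1h2ag (chr13:22042460-22042944, minus strand) was at 75.7% in both replicates at day 0, at 18.6% and 31.5% at day 2, and at 8.66% and 0% at day 4. Its replicates did not overlap between any of the days, and the pooled change to day 4 was -67.0 points. Hist2h2ac (chr3:96220361-96220880, minus strand) was at 79.6% and 62.7% at day 0, at 72.5% in both replicates at day 2, and at 13.1% and 0% at day 4. Its fall therefore came after day 2, with a pooled change of -66.5 points from day 0. Hist1h2an was at 63.6% and 55.5%, then 26.0% and 8.65%, then 0% in both replicates, a stepwise fall without overlap.

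The other 3 genes of that group had replicates far apart at day 0. Hist1h2ao was at 3.12% and 50.8% at day 0, at 37.9% and 26.2% at day 2, and at 0% in both replicates at day 4. Hist1h2ae was at 22.4% and 54.1%, then 37.5% and 11.6%, then 2.27% and 0%. Hist1h2ad was at 11.2% and 57.3%, then 16.8% in both, then 7.87% in both. In all 3 the day 4 values lay below both day 0 values, and replicate 2 was the higher at day 0.

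The H2A genes that changed least were Hist2h2ab, Hist3h2a and Hist1h2ap. Hist2h2ab (chr3:96219865-96220308, plus strand) was at 45.0% in both replicates at day 0, at 59.7% and 45.3% at day 2, and at 37.2% and 14.2% at day 4. Hist3h2a (chr11:58954685-58956830, plus strand), whose 2146 exonic nt run far past its coding sequence, was at 15.3% in both replicates, then 11.04% and 12.2%, then 5.78% and 3.40%. These are small differences in points, but the day 4 replicates lay below the day 0 replicates in both genes. Hist1h2ap had a PPS in replicate 1 only, with 13.3%, 8.92% and 0% on the 3 days.

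Among H2B genes the largest changes were in Hist1h2bl, Hist1h2bk, Hist1h2bm, Hist1h2bn, Hist1h2bj and Hist2h2bb, which encode replication-dependent core H2B. Hist1h2bl (chr13:21715763-21716143, minus strand) was at 0% and 71.7% at day 0, at 70.6% in both replicates at day 2 and at 0% in both at day 4. Its day 0 value thus rested on replicate 2, and the day 0 and day 4 replicates touched at 0%. Hist1h2bk was at 31.5% and 70.8% at day 0, at 49.4% and 62.4% at day 2, and at 0% in both at day 4. Hist1h2bm was at 26.3% and 70.8%, then 42.9% and 55.2%, then 9.92% and 0%. For these 2 genes day 4 lay below every replicate of the earlier days.

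Hist1h2bn was at 48.0% in both replicates at day 0, at 38.1% and 61.4% at day 2, and at 0% and 5.25% at day 4. Hist1h2bj was at 0% and 45.4%, then 52.3% in both, then 0% and 3.67%, so its day 0 and day 4 replicates overlapped. Hist2h2bb (chr3:96269752-96270132, plus strand) had the highest coverage of any of the 36 genes, at 87.7% and 95.5% at day 0. It was at 71.4% and 42.8% at day 2 and still at 39.9% and 56.7% at day 4, which is more than any other H2A or H2B gene held at that day. Its day 4 replicates nevertheless lay below its day 0 replicates.

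H2B genes with little net change between day 0 and day 4 included Hist1h2bf, Hist1h2bq and Hist1h2bb. Hist1h2bf held PPSs at day 2 only, at 49.9% in both replicates. Hist1h2bq was at 0% and 0.893% at day 0, at 12.1% in both replicates at day 2, and at 0% and 2.18% at day 4. Its 2015 exonic nt lie mostly outside its coding sequence, of which 18, 244 and 27 nt were in a PPS on the 3 days. Hist1h2bb was at 24.02%, 37.4% and 22.6% on the 3 days, with the same value in both replicates. All 3 genes therefore peaked at day 2, as did Hist1h2bg, which was at 13.9% in both replicates at day 0, at 25.9% and 47.7% at day 2, and at 0% and 7.12% at day 4. Further pooled rises of over 10 points from day 0 to day 2 were seen in Hist1h2bc (16.4 points), Hist1h2bn (13.4) and Hist1h2bp (12.5). In H2A such rises were seen in Hist1h2af (28.1 points), Hist2h2aa2 (27.1) and Hist2h2ab (14.6).

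Hist1h2aa, Hist2h2aa1 and Hist1h2br held no PPS outside 20 to 40 nt at any day. Hist1h2aa and Hist1h2ba encode the testis forms of H2A and H2B and lie side by side on chromosome 13. Hist1h2ba, named after its values were seen, was covered at 31.5% and 36.5% at day 0, at 30.7% in both replicates at day 2, and at 0% and 11.2% at day 4. Of its exonic 25-mers 46.7% occur elsewhere in the genome, against 14.8% in Hist1h2aa, and the part of these copies in its coverage was not tested.

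PPSs on the genes were fewer and shorter at day 4 in both classes, while the median score at day 4 was below that of day 0 in H2A alone. H2A and H2B exons held 74 PPSs at day 0 and 82 at day 2 but 37 at day 4. Their median length was 99 nt, 100 nt and 51 nt on the 3 days, while that of the whole lists stayed between 58 and 63 nt. The median score was 16.5, 13.3 and 7.29 on H2A and 7.97, 14.4 and 8.14 on H2B, against 8.35, 9.48 and 8.35 over the lists. On H2A genes 38.9%, 46.2% and 81.0% of PPSs rested on a single call and on H2B genes 65.8%, 34.9% and 68.8%, compared with 64.3%, 64.9% and 58.4% in the lists. Longest at day 2 was a PPS of 377 nt on Hist2h2ac, which covered nearly its whole coding sequence and was called in 3 call sets. The highest score of any day, 59.7, came at day 4 from a 176 nt PPS on Hist1h2bc, with dsRNase calls of both replicates. It lay 8031 genomic nt from the start codon, outside the coding sequence, and made up that gene's 15.2% at day 4. PPSs at the same place scored 8.2 and 8.39 at day 0 and 17.2 and 7.27 at day 2.

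The nucleases gave different pictures. At day 0 most coverage came from dsRNase. Mean H2A coverage at day 0 was 6.37% and 7.21% in the ssRNase replicates and 24.6% and 39.1% in the dsRNase replicates, which did not overlap. Mean H2B coverage was 2.15% and 1.86% with ssRNase, where only 2 of 18 genes had a PPS in either replicate, and 14.05% and 30.4% with dsRNase. At day 4 the ssRNase means were at most 2.09% in both classes, and the dsRNase means were 7.10% and 3.22% for H2A and 5.04% and 6.89% for H2B. With dsRNase alone, 11 H2A and 10 H2B genes fell from day 0 to day 4, against 17.4% of all genes. With ssRNase alone the counts were 6 and 1, against 21.4%. Higher at day 4 with ssRNase were 0 H2A genes and 1 H2B gene, against 22.2% of all genes. Only Hist1h2bk and Hist2h2be had ssRNase PPSs at day 0 among H2B genes, so the others could not fall.

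Day 2 stood apart, and its replicates disagreed by nuclease. Mean H2B coverage at day 2 was 30.1% in ssRNase replicate 1, with PPSs on 16 genes, but 0.705% in ssRNase replicate 2, with PPSs on 2 genes. With dsRNase it was 12.8% in replicate 1 and 34.8% in replicate 2. H2A showed the same order, with 30.8% and 7.60% by ssRNase and 16.7% and 22.8% by dsRNase. The lists as a whole ran the other way, since at day 2 ssRNase replicate 2 had the most PPSs (73952) and dsRNase replicate 2 the fewest (14832). PPSs with calls of both ssRNase replicate 1 and dsRNase replicate 2 made up 39.0% of the 82 PPSs on the histone genes at day 2, against 4.31% of the list. The day 2 values of H2B thus rest mainly on 1 ssRNase and 1 dsRNase library pair, and H3 genes had the same order, with means of 44.1% and 2.48% by ssRNase and 26.5% and 49.2% by dsRNase. What set these libraries apart was not tested. Nuclease and replicate are taken from the name field as written, which could not be checked against reads here, and every day 2 value by nuclease rests on it. From day 0 to day 2 with dsRNase, 6 H2A and 2 H2B genes fell, against 28.1% of all genes. Mean H2B coverage changed between these days by 13.4 points with ssRNase (-1.45 to 28.3 over replicate pairs). With dsRNase it changed by 1.61 points (-17.6 to 20.8), so both ranges hold falls and rises.

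**Figure D2:**
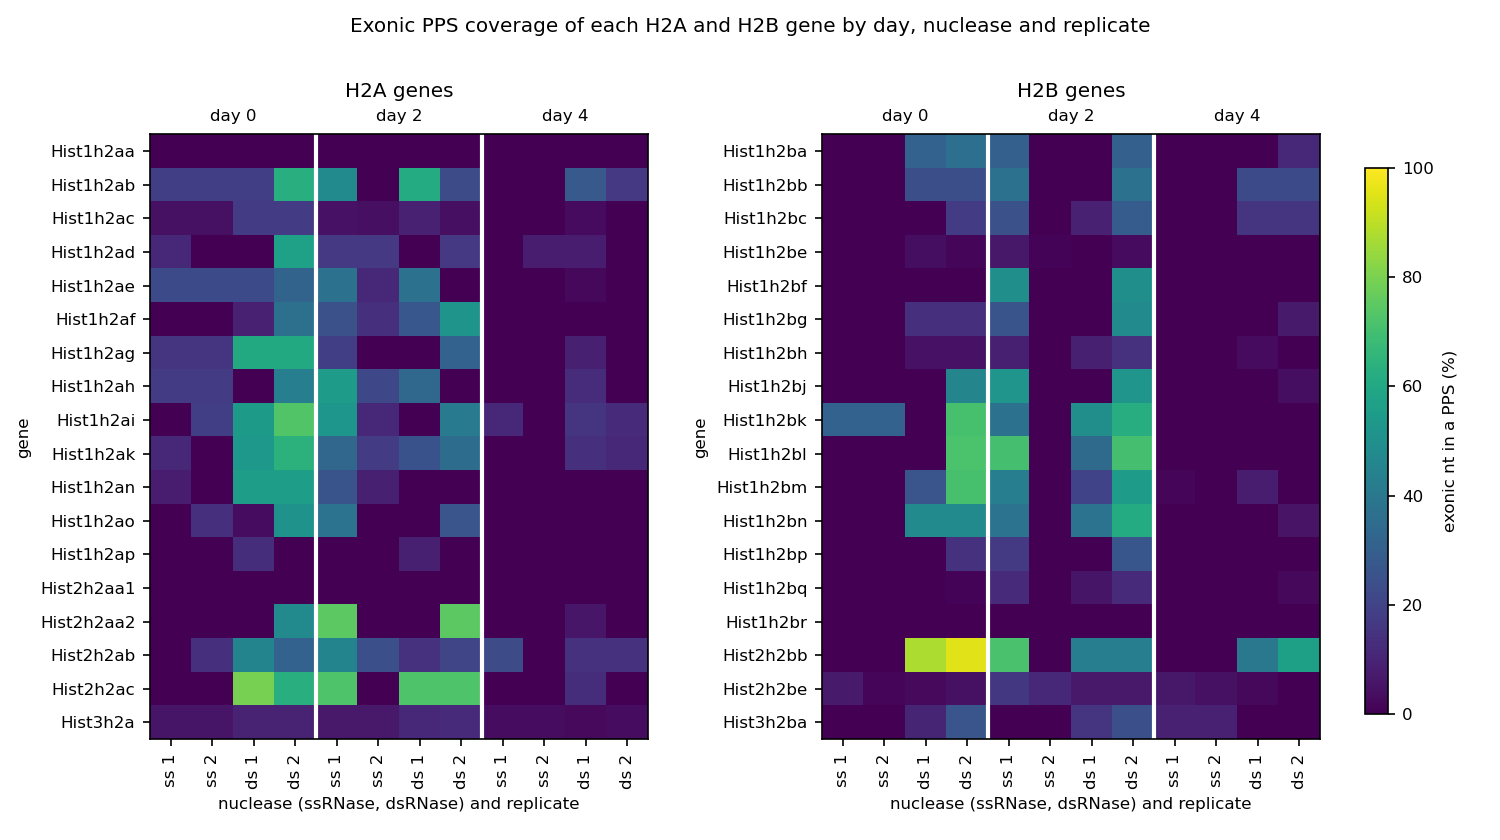
Coverage of each H2A (left) and H2B (right) gene as a colour from 0% to 100% of exonic nt, with a column for each day, nuclease (ss, ssRNase; ds, dsRNase) and replicate. At day 2 the H2B columns ss 1 and ds 2 are filled and ss 2 is empty but for 2 genes, and at day 4 nearly all columns are dark.

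Along the mRNA, H2A protection at day 0 depended on the nuclease. ssRNase PPSs lay at the 5′ end. They covered 47.3% of the 50 nt before the start codon and 31.6% of the 5′ part of the coding sequence (the coding sequence cut into 3 equal parts), but 0% of the middle and 3′ parts. The start codon itself was in an ssRNase PPS in 12 of 18 genes, and in a PPS of either nuclease in 14, 11 and 6 genes at day 0, 2 and 4. dsRNase PPSs covered 31.2%, 57.6% and 70.9% of the 5′, middle and 3′ parts at day 0. They were most common at coding nt 230 to 281, where 15 of 18 H2A genes had one.

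At day 2 the 3′ part of H2A coding sequences was less covered than at day 0 and the 5′ part more. Pooled coverage of the 5′, middle and 3′ parts was 40.3%, 57.6% and 70.9% at day 0 and 58.7%, 62.8% and 35.2% at day 2. For the 3′ part, the day 0 replicates were at 40.1% and 68.1% and the day 2 replicates at 25.7% and 24.9%, without overlap. For the 5′ part they were at 32.7% and 39.0% at day 0 and at 48.2% and 54.7% at day 2, also without overlap. The middle part overlapped, with 32.5% and 57.6% against 60.8% and 23.5%. With ssRNase alone coverage extended the other way, from 0% to 57.0% of the middle part and from 0% to 16.4% of the 3′ part. Those ssRNase values came from replicate 1, since replicate 2 covered 0.721% of the middle part and none of the 3′ part. At day 4 the 3 parts were at 16.5%, 9.99% and 6.68%, and each replicate lay below both day 0 replicates. The 50 nt before the start codon went from 58.2% to 37.6% and 11.3%.

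H2B protection at day 2 fell into 2 blocks with a gap between them. Pooled coverage was 69.3% of the 5′ part, 25.1% of the middle part and 77.3% of the 3′ part, compared with 38.5%, 29.3% and 50.3% at day 0. A PPS covered coding nt 334 to 348 in 17 of 18 H2B genes, while 1 gene was covered at each position from nt 168 to 235. In the 5′ part, the replicates were at 27.0% and 33.5% at day 0 and at 64.4% and 69.3% at day 2. In the 3′ part they were at 21.1% and 47.8%, then 59.5% and 66.8%, without overlap in either part. In the middle part they were at 14.9% and 27.1%, then 21.8% and 25.1%, which overlapped. At day 2, replicate 1 rested mainly on ssRNase calls and replicate 2 on dsRNase calls, and merged intervals give both the same coordinates. The lack of overlap in the 5′ and 3′ parts is therefore not agreement of replicates within 1 nuclease. At day 4 the 3′ part of H2B coding sequences was almost free of PPSs, at 0.437%, with 1 gene touched, while the 5′ part held 15.8%. The 50 nt before the start codon were at 31.9%, 15.7% and 13.6% on the 3 days.

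**Figure D3:**
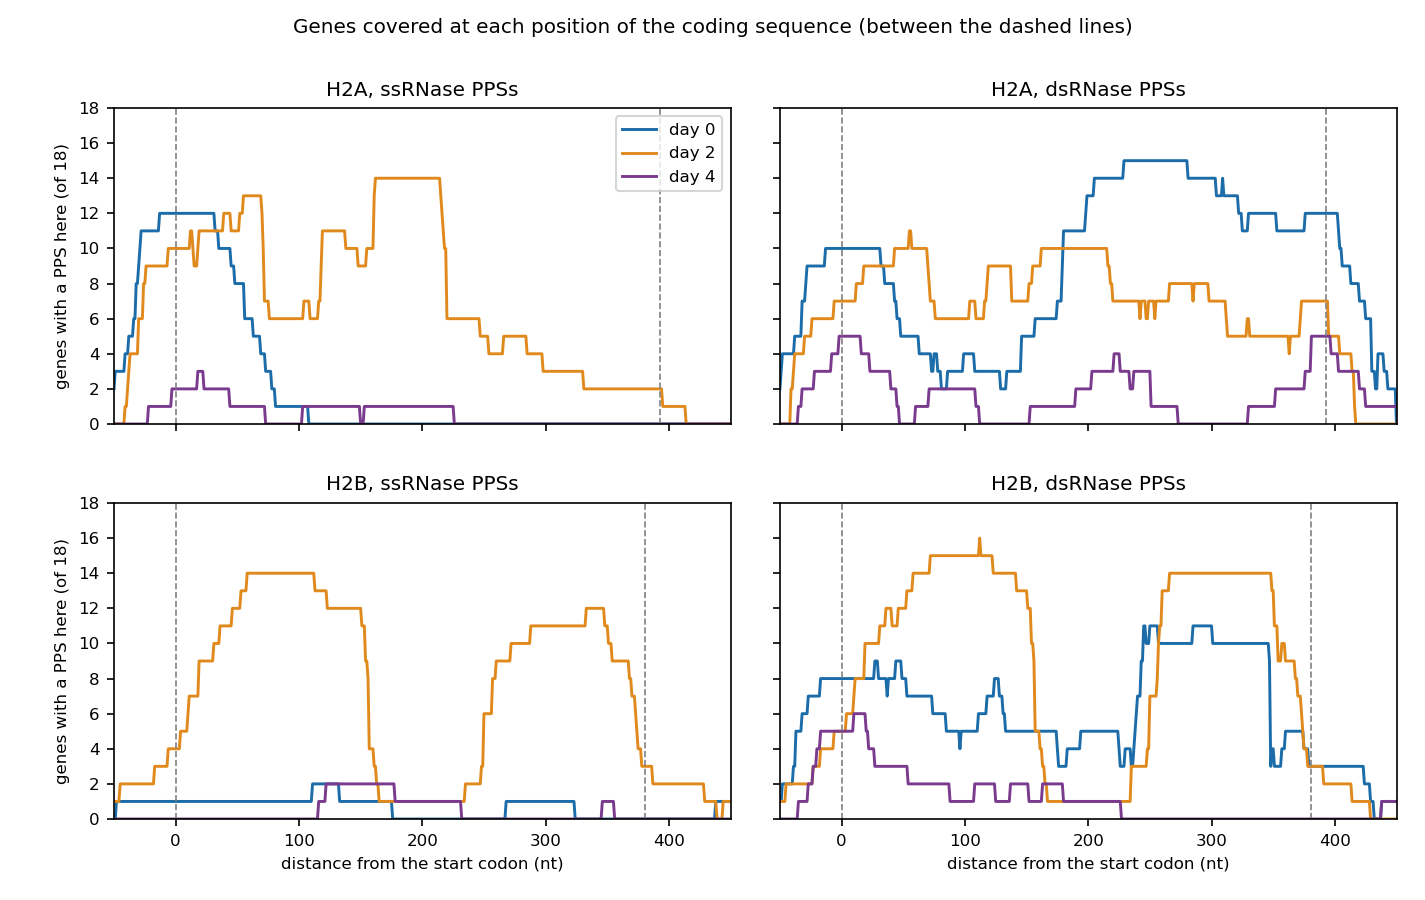
Number of H2A (top) and H2B (bottom) genes, of 18 each, with an ssRNase (left) or dsRNase (right) PPS at each distance from the start codon, for day 0 (blue), day 2 (orange) and day 4 (purple), with dashed lines at the start and the end of the coding sequence. At day 0 ssRNase PPSs of H2A stay near the start codon, and at day 2 the H2B curves have 2 blocks with a gap at nt 168 to 235.

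Counts of genes with a PPS on the stem-loop were highest for H2A at day 0. At day 0 at least 1 of its 16 nt lay in a PPS in 7 of 17 H2A genes and 3 of 17 H2B genes that have it. At day 2 the counts were 0 and 3, and at day 4 they were 3 and 0. The H2A genes touched at day 0 were Hist1h2ac, Hist1h2ad, Hist1h2ag, Hist1h2ai, Hist1h2ao, Hist1h2ap and Hist2h2ac, with 5 to 16 nt covered. All 7 were touched by dsRNase calls and none by ssRNase calls. Hist1h2ao and Hist1h2ap, which have the same coding sequence, carried PPSs of the same length (15 nt), score, call and distance from the start codon. By replicate, 6 and 4 H2A genes were touched at day 0, 0 in both at day 2, and 3 and 1 at day 4. The 3 touched at day 4 were Hist1h2ab (16 nt, in dsRNase calls of both replicates), Hist1h2ai (8 nt) and Hist2h2ac (9 nt), the last 2 in replicate 1 alone. The H2B genes were Hist1h2bk, Hist1h2bl and Hist2h2bb at day 0 and again at day 2, but not with the same calls. Hist1h2bk had 16 nt in dsRNase replicate 2 at day 0 and 1 nt in dsRNase replicate 1 at day 2. Hist1h2bl had 16 nt on both days, in dsRNase replicate 2 alone at day 0 and in calls of both replicates at day 2. Hist2h2bb had 5 nt in both dsRNase replicates at day 0 and 16 nt in ssRNase replicate 1 alone at day 2.

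H2A genes were covered in the stretch from the stop codon to the stem-loop as well. Coverage there was 46.9%, 16.8% and 20.8% on the 3 days. For H2B the stretch was at 17.6%, 19.7% and 0%. The stop codon was in a PPS in 12, 7 and 5 H2A genes and in 3, 5 and 0 H2B genes. Downstream of the stem-loop, which is beyond the mature end of the stem-loop form but within annotated exons of some genes such as Hist3h2a, the 50 nt window stayed at 6.24% or lower in both classes on every day. The annotated exons reach the stem-loop in 21 of the 34 genes and stop short of it in 13, so the coverage percentages of those 13 leave it out, while the stem-loop counts do not.

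**Figure D4:**
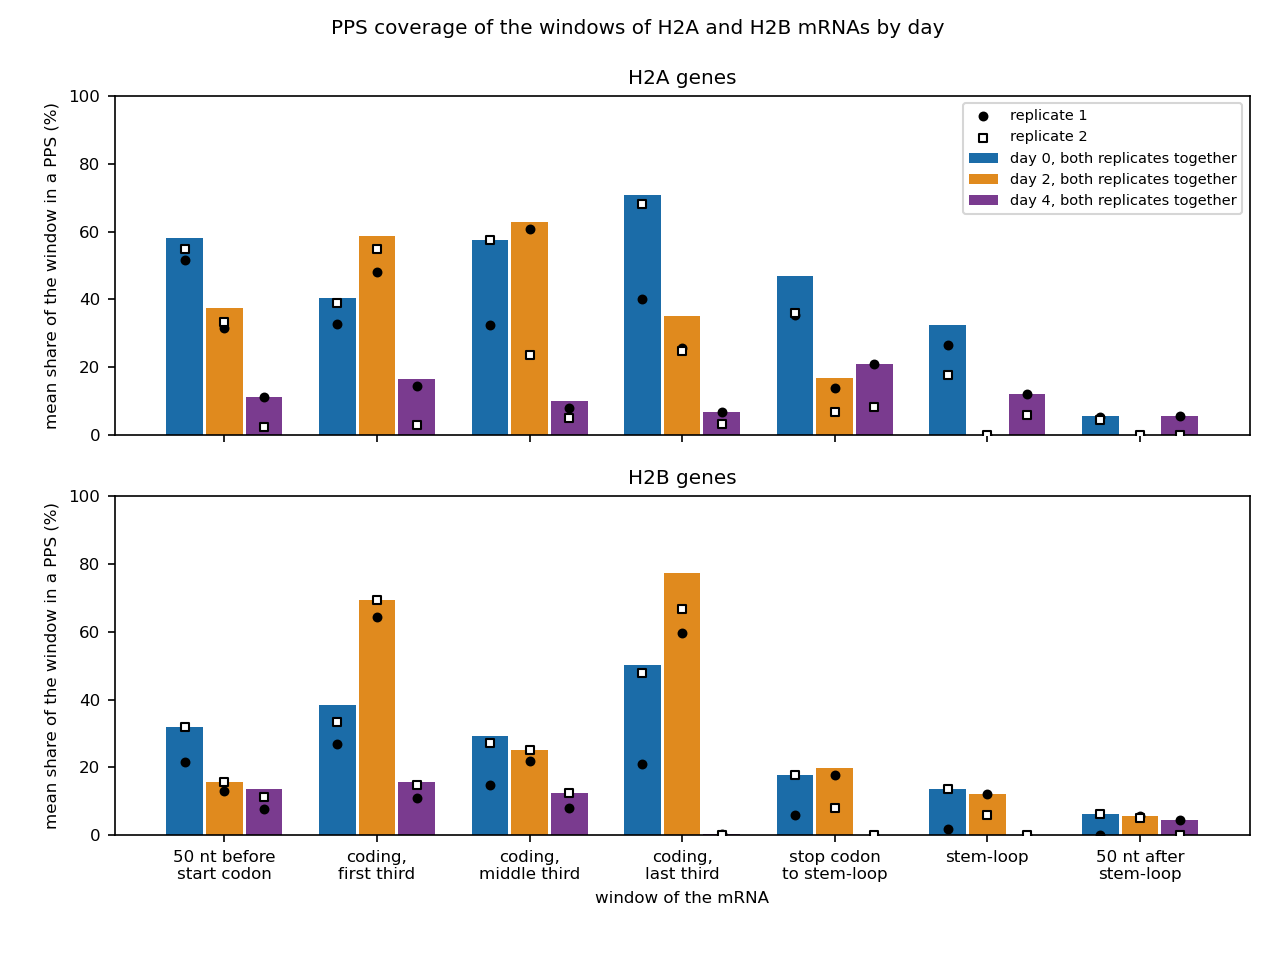
Mean share of each mRNA window in a PPS, in percent, for H2A (top) and H2B (bottom) genes, as bars for day 0 (blue), day 2 (orange) and day 4 (purple) with both replicates together, and points for replicate 1 (black circles) and replicate 2 (white squares). The H2A stem-loop bars stand at 32.4%, 0% and 12.1%, and the H2B 3′ coding part is the highest window at day 2 and near 0% at day 4.

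Copies limit what can be said of a single gene. Coding sequences of equal length were identical at a median of 96.4% of positions over 106 H2A pairs and 97.2% over 136 H2B pairs. The pairs Hist1h2ao and Hist1h2ap, Hist2h2aa1 and Hist2h2aa2, and Hist1h2bq and Hist1h2br had the same coding sequence. Reads were aligned with up to 10 genome positions kept per read. Within each pair no coding position was covered in both copies on any day, although the stem-loop of the first pair was. In that pair 54.0% of Hist1h2ao and 13.3% of Hist1h2ap were covered at day 0. Hist2h2aa2 was at 74.6% in both replicates at day 2 while Hist2h2aa1 held no PPS. Levels of single members of such pairs are therefore uncertain, and reads from any of them may be placed on another.

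To see how far copies bear on the changes, coding positions were sorted by how many genome positions share the 25-mer centred on them. At positions with a single hit, H2A coverage was 58.5%, 50.4% and 26.5% at day 0, 2 and 4, and H2B coverage was 54.1%, 48.5% and 26.8%. At positions with 2 to 10 hits, coverage was 38.6%, 59.5% and 7.98% for H2A and 37.5%, 58.2% and 8.33% for H2B. At positions with over 10 hits, it was 64.2%, 49.3% and 5.83% for H2A and 32.7%, 61.2% and 1.27% for H2B. Day 4 lay below day 0 in each class, without overlap of replicates at single-hit positions (52.8% and 56.1% against 25.8% and 10.5% for H2A, 39.8% and 47.6% against 18.5% and 24.96% for H2B). A day 2 increase was thus seen in both classes at 2 to 10 hits, where the replicates did not overlap (25.1% and 36.3% against 53.3% and 49.2% for H2A), and in H2B at over 10 hits. At single-hit positions the day 2 replicates of H2B (44.7% and 40.1%) lay within the range of those of day 0 (39.8% and 47.6%). The 5 H2A and 7 H2B genes with under 50% of their 25-mers elsewhere gave median changes of -9.51 and -5.27 points from day 0 to day 4, and 4 and 5 of them fell without overlap.

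**Figure D5:**
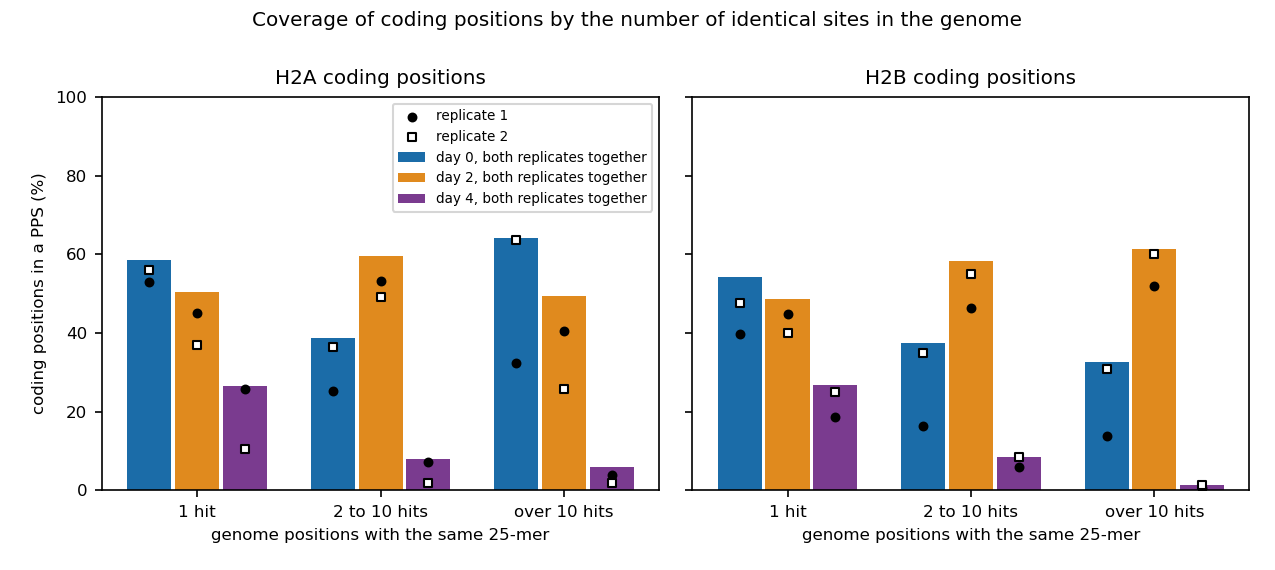
Share of H2A (left) and H2B (right) coding positions in a PPS, in percent, by the number of genome positions with the same 25-mer, as bars for the 3 days with both replicates together and points for each replicate (black circles, replicate 1; white squares, replicate 2). Day 4 is lowest in all 6 classes, and the H2B bars of day 2 exceed those of day 0 at 2 or more hits but not at 1 hit.

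Other histone genes and the factors that act on histone mRNAs were set beside these values. H3 genes had pooled medians of 47.8%, 58.5% and 34.1% on the 3 days and H1 genes 28.6%, 38.5% and 25.1%. From day 0 to day 4 the median change was -20.9 points over 12 H3 genes, -10.7 over 6 H1 genes and -0.321 over 13 H4 genes, with 5, 4 and 0 genes falling without overlap and 2, 1 and 3 higher. Of all genes with an exonic PPS, 25.4% fell and 30.8% were higher in this way. Over replicate pairs the median ranged from -23.6 to 0.326 points for H3, from -13.8 to -9.05 for H1 and from -0.963 to 15.7 for H4, so the ranges of H3 and H4 include 0. H4 genes had pooled medians of 36.9%, 41.1% and 35.9%, and no test of the difference between classes was made.

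H2A and H2B variants with symbols outside the Hist1 to Hist4 series, whose mRNAs are mostly polyadenylated, were set beside them too. Of 10 measured, 5 held an exonic PPS. H2afx (the variant phosphorylated at DNA breaks) was at 25.4%, 38.3% and 19.6% on the 3 days and H2afz (the variant at promoters) at 39.7%, 25.5% and 29.7%. H2afj was at 16.8%, 15.0% and 10.2%, H2afv, a close relative of H2afz, at 6.61%, 14.1% and 11.1%, and macroH2A1 (H2afy) at 8.49%, 4.66% and 8.72%. From day 0 to day 4 the replicates of 4 of them overlapped, and H2afy was higher. H2afz fell without overlap by day 2, from 27.0% and 35.5% to 15.2% and 14.5%.

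Of 35 measured histone mRNA factors 33 held an exonic PPS, and 13 fell and 7 were higher from day 0 to day 4 without overlap (25.4% and 30.8% of all genes), with a median change of 0 points. The 5 largest pooled changes were in Pcf11, a cleavage factor (18.3% to 30.9%), Snrpb, an Sm protein (40.8% to 28.8%), Cpsf2, the CPSF100 subunit of the histone cleavage complex (16.6% to 4.95%), and Lsm7 (15.1% to 3.69%) and Lsm5 (10.9% to 0%), subunits of LSM rings in RNA decay and splicing. Slbp, the stem-loop binding protein, named after its values were seen, was at 13.2% and 13.9% at day 0, at 6.67% and 9.76% at day 2, and at 18.9% and 17.7% at day 4. Its day 4 replicates lay above those of day 0, opposite in direction to the H2A and H2B genes.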

How the data were processed

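PIP-seq libraries of MEL cells at 3 days were analysed from the 3 PPS lists. Per the methods, reads were trimmed with cutadapt 1.2.1, aligned with TopHat 2.0.10 keeping up to 10 positions per read, collapsed for PCR duplicates, and called as PPSs against structure only libraries by a Poisson model. The deposited lists give position, strand, calling nuclease and replicate, and a score from the authors, which was 5.4 or more. Coordinates are mm10. Groups came from sample titles. The source names of the ssRNase libraries titled protein speak of a protein kinase and those of the dsRNase ones of proteinase K, although titles name both alike. This was not settled, and values here use the nuclease and replicate named in the PPS lists.

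Coverage, the percentage of exonic nt in a same-strand PPS (at least 1 nt overlap, lengths of 20 to 40 nt left out), was computed in Python 3.11.15 with numpy 2.4.6 and pandas 2.3.3, and figures with matplotlib 3.10.9. The coverage code was tested on simulated data. The genome was GRCm38.p6 from RefSeq and 25-mers were counted on 21 chromosomes. Members and lists were chosen with earlier results of these data known. Named were, per class, the 6 genes with the largest and the 3 with the smallest change from day 0 to day 4, those higher by over 10 points, those without a PPS and identical copies, the 5 factors with the largest change, and all variants. Genes with a PPS on the stem-loop, Hist1h2ba, Slbp and the Hist1h2bc PPS of highest score were named after their values were seen. No test was run. Alternatives were PPS length, replicate support, nuclease, equal list size, overlap, copies, strand, each replicate left out and, chosen after seeing the data, PPSs of a single call.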

Additional observations from a re-analysis of the deposited data

Results flagged for a closer look

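The mean H2A coverage moved in opposite directions with the nucleases between day 0 and day 2. It was higher by 12.4 points with ssRNase (0.397 to 24.4 over the 4 replicate pairs) and changed by -12.1 points with dsRNase (-22.4 to -1.82). The dsRNase change minus the ssRNase change was -24.5 points, and this difference was not tested. It rests on the nuclease that the name field gives for each call, which could not be checked against reads here. The H2A ssRNase means were 6.37% and 7.21% at day 0 and 30.8% and 7.60% at day 2, so the rise came mainly from replicate 1. Over all genes with an exonic PPS, dsRNase means went down too, from 3.66% and 4.18% to 3.05% and 2.03%. Their ssRNase means were 3.81% and 3.44% at day 0 and 3.47% and 4.31% at day 2.

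PPSs of 20 to 40 nt, which were left out of coverage, lay on the sense strand of H2A and H2B exons as well. Day 0 and day 2 had 6 each and day 4 had 17, the last on 15 genes and 15 of them with dsRNase calls. At day 0, day 2 and day 4 they made up 7.5%, 6.82% and 31.5% of the sense PPSs on these exons. Their shares of the lists were 17.1%, 29.5% and 19.98%. They are given because they fall outside the main measurement.

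Antisense PPSs outside that length numbered 2, 9 and 8 on the 3 days. All of them lay on H2A genes. At day 2, 4 of them on Hist1h2ac, Hist1h2ae, Hist1h2ag and Hist1h2ah lay at the same distance from the start codon with the same score and call, a further 2 on Hist2h2aa2 and Hist2h2ac shared theirs, and counting each set once left 5. At day 2 all 9 had ssRNase calls and calls of replicate 2.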

How the results depend on the processing

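Over 16 alternative settings, 61 of 96 values stayed close to the main value and 3 changed sign. For median changes, close meant moved by less than the SD over replicate pairs (19.8 and 7.87 points for H2A at day 4 and day 2, 6.37 and 4.71 for H2B). The change in genes with a PPS on the stem-loop was judged by its SD too (1.15 genes). Counts of genes lower without overlap were close when within 1.5 times. A value within these SDs can still differ from that reported, as with genes of few copies, where the H2A change at day 2 was 0 points. The H2A median change from day 0 to day 2 turned to 23.4 points with ssRNase calls alone, a value that came mainly from ssRNase replicate 1. The H2B median change turned to -1.60 with PPSs of a single call, a setting chosen after seeing the data. Leaving out each replicate gave -17.1 to 2.83 points for H2A and 2.48 to 13.7 for H2B at day 2, the positive H2A value being that without day 0 replicate 2. At day 4 it gave -48.5 to -9.39 points for H2A, -14.2 to -1.26 for H2B, 13 to 15 H2A and 10 to 14 H2B genes lower without overlap, and -9 to -4 for the change in genes with a PPS on the stem-loop (-7 in all).

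With ssRNase calls alone the H2B change at day 2 was 25.4, mainly from ssRNase replicate 1. The day 4 changes with those calls were -3.86 points for H2A and 0 for H2B, with 6 and 1 genes lower and a stem-loop change of 0. With PPSs called in both replicates they were -14.8 and -1.22, with a stem-loop change of -3 and an H2B change at day 2 of 12.04. That setting gives no count of genes lower without overlap. With PPSs of a single call they were -5.99 and -1.14, with 1 gene lower in each class and a stem-loop change of -4. Among genes with few copies the H2A change was -9.51, with 4 H2A and 5 H2B genes lower and a stem-loop change of -2. Minus-strand genes gave 7 H2A and 3 H2B genes lower, an H2B change of -2.83 and a stem-loop change of -4, and plus-strand genes 6 H2A genes lower and a stem-loop change of -3. These last counts are over fewer genes. The other causes were not tested.

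No paired analysis was possible because no result comes from a test and nothing in the labels says whether the shared replicate numbers link samples across days. Read depth is unknown from the lists, single calls' coordinates are not given, and mRNA level and protection cannot be told apart.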
